A study of Rattus norvegicus with 6 samples.

Results

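The cytosolic ribosomal protein genes were taken from the gene table by name, as protein-coding genes called Rpl or Rps with a number, together with Rpsa, Rplp0, Rplp1 and Rplp2. S6 kinase genes and names marked as pseudogenes were left out. The rule gave 87 genes with 81 symbols, out of 33713 genes in the table. RNA sequencing covered 3 ES and 3 control samples of sciatic nerve from female Sprague-Dawley rats aged 8 weeks, all taken on day 4 after the nerve was left with a gap of about 6 mm. ES nerves received electrical stimulation for 1 h at once, and control nerves received none. In both groups the nerve ends were then sutured 2 mm deep into a silicone tube of 10 mm. The labels name neither the piece of nerve used for RNA nor whether each sample was a rat of its own. The p-values therefore reflect variation among these 6 samples, part or all of which may be technical. Rpl30 was singled out because it was called lower in ES in an earlier fit of the same comparison, so its difference between the groups is described here without a test.

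Ribosomal proteins fold onto ribosomal RNA to form the large and the small subunit of the ribosome, and nearly every cell makes them in matched amounts. The small subunit reads the messenger RNA and the large subunit joins the amino acids, while the acidic stalk proteins P0, P1 and P2 recruit the factors that drive translation. Their messenger RNAs usually begin with a run of pyrimidines, through which growth signals acting on mTOR set how strongly they are translated. Mammalian genomes also hold many copies of these genes that arose from reverse-transcribed messenger RNA, and short reads can be hard to place between a gene and its copies. In bulk nerve RNA, fewer cells of a type and less RNA per cell cannot be told apart.

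Library totals ran from 14962319 to 17119144 counts, and the ribosomal protein genes held 3.23%, 3.43% and 3.22% of the counts in ES 1 to 3, against 3.11%, 3.005% and 3.30% in control 1 to 3. All 7 Schwann cell markers examined were present, and they summed to 10530 to 11200 CPM (counts scaled to library size) in ES and to 8189 to 10700 CPM in control. The 9 adipocyte markers summed to 156, 735 and 328 CPM in ES, against 1404, 1311 and 1232 CPM in control. The 8 macrophage markers summed to 1029 to 1345 CPM in ES and to 848 to 953 CPM in control. None of these markers was at 0 in all libraries. The 3 endothelial markers found summed to 193 to 212 CPM in ES and to 242 to 313 CPM in control, and the 4 fibroblast markers to 17790 to 20010 CPM in ES and 20220 to 26910 CPM in control. The edgeR fit over all genes called 1 endothelial marker, lower in ES (adjusted p under 0.05). It called 0 in each other marker list, and 0.135% of all tested genes lower. DESeq2, a second count test, called 2 Schwann and 3 macrophage markers higher. It called 3 endothelial, 1 adipocyte and 1 fibroblast marker lower, against 2.03% of all genes it tested in either direction. Unadjusted edgeR p was under 0.05 for 2 Schwann and 4 macrophage markers, higher, against 9.95% of all tested genes. The same held for 5 adipocyte, 3 endothelial and 2 fibroblast markers, lower. Blood markers stood apart in ES 2, where 3 erythrocyte genes summed to 1183 CPM, against 62.1 and 72.7 CPM in the other ES libraries and 55.6 to 138 CPM in control. The 4 neutrophil markers summed to 161 CPM in ES 2, and to 14.1 and 20.7 CPM in the other ES libraries and 13.5 to 21.0 CPM in control. They did not all go the same way: 3 of 4 had a log2 fold change above 0, and DESeq2 called 1 higher and 1 lower. Skeletal muscle and lymphocyte markers summed to at most 4.66 and 3.22 CPM in ES and to at most 6.75 and 2.70 CPM in control. The 13 mitochondrially encoded genes, a rough gauge of RNA quality, summed to 43660 to 45740 CPM in ES and to 41640 to 52880 CPM in control. Of these 13, 0 had a log2 fold change above 0, and their median was −0.12. The part of cell makeup or RNA quality in the differences given below was not tested.

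Rpl30 encodes L30, a protein of the large subunit that in yeast also binds and restrains its own transcript. The gene (ENSRNOG00000005975) lies on chromosome 7, 73213581 to 73216251, minus strand, in the coordinates of the deposited tables, whose build is not settled: the submitters name rn7, while clone names in the tables resemble an earlier build. It held 2541, 2904 and 2153 counts in ES 1 to 3, against 4483, 3966 and 3599 counts in control 1 to 3. Scaled to depth this was 151, 174 and 141 CPM in ES and 276, 260 and 231 CPM in control, so that every ES library lay below every control library. The means were 155 ± 16.8 CPM in ES and 256 ± 22.9 CPM in control (SD, n = 3 each), a log2 fold change of −0.72 ± 0.10 (SE). These are the values by which Rpl30 was chosen.

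A further locus in the table, LOC100362027 (ENSRNOG00000032825, chromosome 10, 38024477 to 38024937, minus strand, described as ribosomal protein L30-like), ran the other way. It is outside the rule on names and was looked up after the values of Rpl30 were seen. It held 2077, 2748 and 2628 counts in ES 1 to 3, against 534, 483 and 1284 counts in control 1 to 3. That was 153 ± 26.6 CPM in ES and 49.0 ± 29.0 CPM in control (SD, n = 3 each), a log2 fold change of 1.65 ± 0.47 (SE), and the groups did not overlap. In the edgeR quasi-likelihood fit over all genes this difference was not called (adjusted p = 0.385).

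Between these 2 loci, Rpl30 held 55.0%, 51.4% and 45.0% of the counts in ES 1 to 3, against 89.4%, 89.1% and 73.7% in control 1 to 3. The exact 95% binomial intervals ran from 43.6% to 56.5% over the ES libraries and from 72.4% to 90.2% over the control libraries, and cover counting error only. Control 3 was the control library with the lowest share at Rpl30 and the highest count at LOC100362027. The other loci described as L30 together held at most 3 counts in a library, all in ES: Rpl30l1, a member by name, had 1, 0 and 3 counts in ES and 0 in each control library.

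Added together, all loci described as L30 gave 4619, 5653 and 4784 counts in ES and 5017, 4449 and 4883 counts in control. The sum was 309 ± 32.8 CPM in ES and 305 ± 11.6 CPM in control (SD, n = 3 each), and the groups overlapped. Its log2 fold change in an edgeR fit with such loci summed was 0.024 ± 0.088 (SE; adjusted p = 0.955), and it ran from −0.05 to 0.10 when each library was left out in turn. Between the group means, the lower level of Rpl30 in ES went with a higher level of the L30-like locus. Library by library this did not always hold. From ES 1 to ES 2 both rose, Rpl30 from 151 to 174 CPM and LOC100362027 from 123 to 165 CPM. From ES 2 to ES 3 Rpl30 fell to 141 CPM while LOC100362027 rose to 173 CPM. How reads were assigned between similar loci is not given in the sources used here, and whether the loci differ in transcription or in read placement was not tested.

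**Figure D1:**
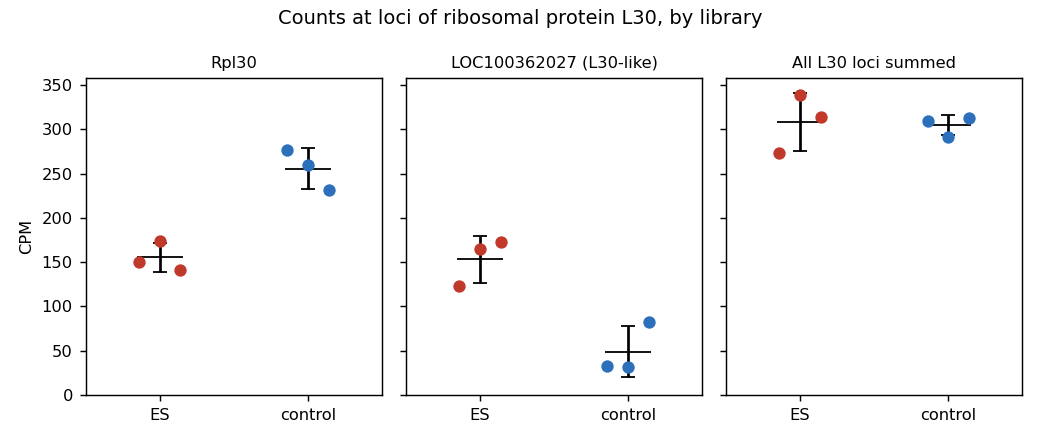
CPM at Rpl30, at LOC100362027 and summed over all loci described as L30, with 1 point per library, the mean as a horizontal line and the SD as whiskers (n = 3 per group). ES lay at 141 to 174 CPM for Rpl30 against 231 to 276 CPM in control, while the sums were 274 to 339 CPM in ES and 292 to 314 CPM in control.

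The sequences of 2 L30 copies are shown because they are nearly identical over a short stretch. They do not include Rpl30 itself, so they do not compare it with LOC100362027, and Rpl30l1 held 0 to 3 counts. RefSeq, on build GRCr8, lists LOC100362027 under the symbol Rpl30l2. The stretch of Rpl30l2 (chr10:37332822-37332851, minus strand) lies just after its annotated start, and that of Rpl30l1 (chr13:91813924-91813953, plus strand) lies before its own. Capitals mark the bases at which they are identical, 28 of 30.
LOC100362027: CTCCCCgGCCATCTTGGCGtCTGATCTTGG
Rpl30l1: CTCCCCaGCCATCTTGGCGcCTGATCTTGG

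Both neighbours of Rpl30 had positive log2 fold changes. The nearest tested gene on one side, Matn2, which encodes a matrix protein, was at 473 ± 28.1 CPM in ES and 381 ± 19.6 CPM in control (log2 fold change 0.31 ± 0.08, SE), with no overlap. On the other side Rida, a deaminase gene, was at 14.2 ± 4.29 CPM in ES and 11.4 ± 1.78 CPM in control (SD, n = 3). Neither was called by edgeR (adjusted p = 0.174 and 0.684). No tested gene of the table overlapped Rpl30.

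Of the 87 genes, 82 passed the filter on low counts and were tested. Among the 81 tested genes other than Rpl30, edgeR's quasi-likelihood test called 0, with 2 at an unadjusted p under 0.05, both higher in ES. Over all 14828 tested genes edgeR called 25, which is 0.169%, with 0.0337% higher and 0.135% lower in ES, and 9.95% had an unadjusted p under 0.05. DESeq2 also called 0 of these members, while it called 2.03% of all genes it tested. The other ribosomal protein genes lay slightly to the higher side in ES: 70 of 81 had a log2 fold change above 0, against 50.7% of all tested genes. Their median was 0.10, with quartiles of 0.04 and 0.13, while the median over all tested genes was 0.0025. The libraries of a group differed by as much, with an SD of 0.10 in the members' median log2 CPM, and without ES 2 the median log2 fold change was 0.05. Rpl30 had the lowest log2 fold change of the 82, at 0.82 below the median of the rest.

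**Figure D2:**
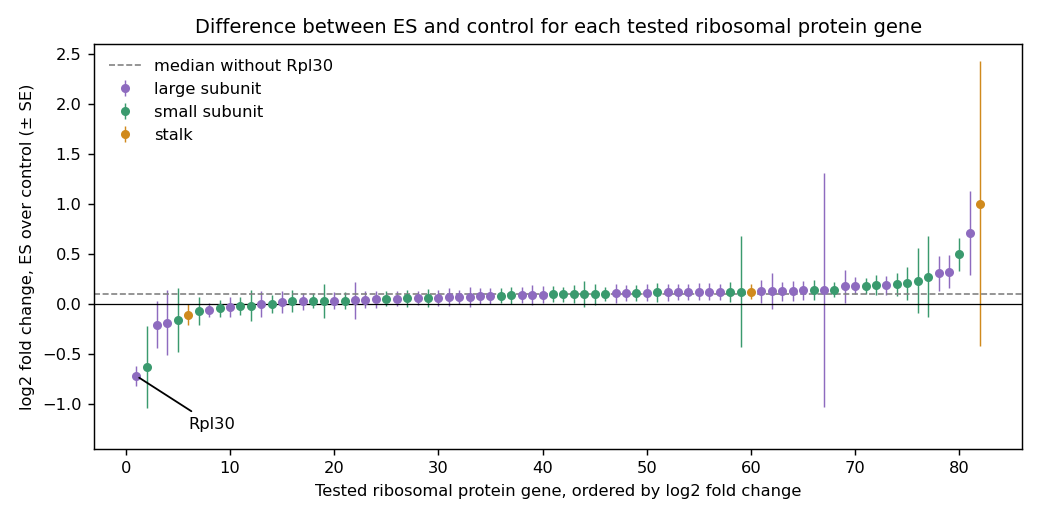
Log2 fold change of ES over control with its SE for the 82 tested ribosomal protein genes, ordered from lowest to highest and coloured by subunit. Rpl30 lies lowest at −0.72 with a narrow SE, and the others gather round the dashed line, their median of 0.10.

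Both subunits lay slightly to the higher side. For the large subunit, without Rpl30 and the stalk, the median log2 fold change was 0.09, and 39 of 43 tested genes lay above 0. For the small subunit it was 0.10, and 29 of 35 lay above 0. Summed over its members, the large subunit held 16420, 17650 and 15700 CPM in ES and 15620, 15190 and 16490 CPM in control. The small subunit held 12950, 14330 and 13050 CPM in ES, against 12520, 12130 and 13580 CPM in control. In both sums ES 2 was the highest library and control 2 the lowest, and the groups overlapped.

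Without Rpl30, 6 tested ribosomal protein genes showed no overlap between the groups, 7.41% of 81, while 15.8% of all tested genes had none, 7.54% higher and 8.23% lower in ES. Rplp0, the stalk base, was the most abundant of them, at 2111, 2225 and 2001 CPM in ES and 1972, 1879 and 1972 CPM in control. Rps15a, a small subunit gene, was at 296, 345 and 325 CPM in ES and 289, 292 and 270 CPM in control, and had an unadjusted edgeR p of 0.0448 (adjusted p = 0.483). Its log2 fold change was 0.18 ± 0.08 (SE). The others included Rps27l and the Rpl21 locus on chromosome 3, both higher in ES, and Rpl7l1, lower in ES. The other gene at an unadjusted p under 0.05 was Rps9l1, a copy related to S9, at 28.8, 47.5 and 39.7 CPM in ES and 26.7, 26.2 and 29.3 CPM in control (edgeR adjusted p = 0.342). Its groups overlapped, since ES 1 lay below control 3.

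The ends of the ranking were mostly loci with relatives elsewhere in the table. After Rpl30, the lowest log2 fold changes were those of Rps19l2 (−0.63 ± 0.41, SE), the Rpl21 locus on chromosome 12 (−0.21 ± 0.23), Rpl10l (−0.19 ± 0.32), a retrogene mainly used in testis, and Rps6 (−0.16 ± 0.32), which encodes the phosphorylated protein S6. The highest were Rplp2 (1.00 ± 1.43), Rps9l1 (0.50 ± 0.17), the Rpl21 locus on the X chromosome (0.32 ± 0.17), a Rpl7a locus on chromosome 3 (0.31 ± 0.17) and Rps19 (0.27 ± 0.40). The Rpl21 locus on chromosome 3 had 0.71 ± 0.42 at a mean of 0.92 CPM over all libraries. Single libraries could set the sign of these values: Rplp2 was at −0.98 without ES 2, and Rps6 at 0.27 without control 1. Rpl10l held 25, 52 and 36 counts in ES and 36, 46 and 42 in control, so its sign also leaned on ES 1. None of these was called.

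Levels per gene length, as deposited FPKM (fragments scaled to gene length and library size), spread widely within the family. They and their ranks depend on the deposited gene lengths, such as 443 bases for Rpl41 and 5151 bases for Rpl7. The median of the tested genes was 508 FPKM, with quartiles of 137 and 735, while all tested genes had a median of 9.02 FPKM. Rpl41, which encodes the very short protein L41, was highest at 2257 ± 146 FPKM in ES and 2075 ± 105 in control (SD, n = 3 each). Rplp0 followed at 1930 ± 101.1 FPKM in ES and 1768 ± 46.6 in control. The stalk gene Rplp1 was next at 1710 ± 124 FPKM in ES and 1835 ± 249 in control, so that Rplp1 had the higher mean of the pair in control, and the SD ranges of Rplp0 and Rplp1 overlapped in both groups. Rpsa, which encodes a small subunit protein also known as the laminin receptor, and Rps20 completed the highest 5, at means of 1273 and 1165 FPKM over all libraries, and their SD ranges overlapped in both groups.

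Rpl30 lay at 432, 499 and 406 FPKM in ES, ranking 43rd, 42nd and 46th of the 82 genes. In control it lay at 791, 745 and 659 FPKM, ranking 13th, 21st and 29th. By counts its rank moved less, at 57th, 58th and 59th in ES 1 to 3 and 51st, 50th and 53rd in control 1 to 3. Both rankings restate the values by which Rpl30 was chosen.

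**Figure D3:**
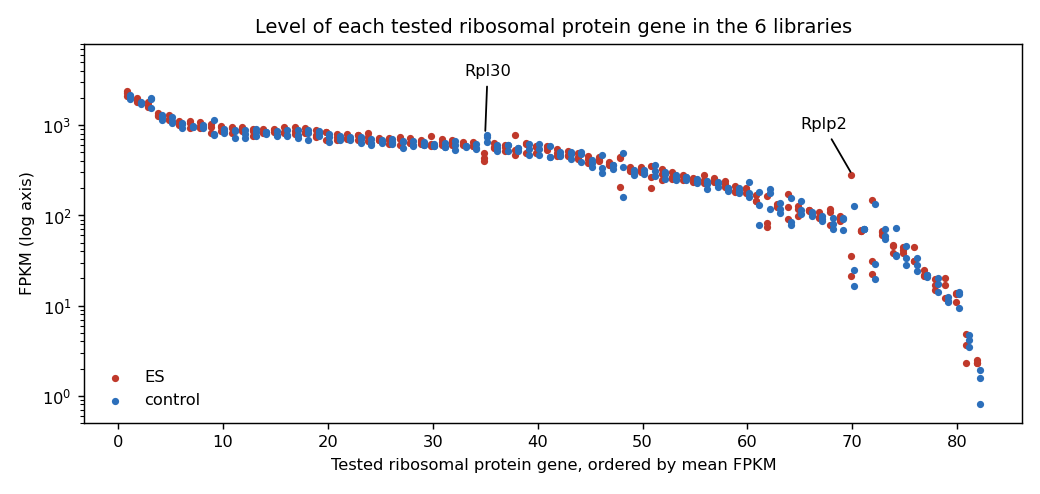
FPKM on a log axis for the 82 tested ribosomal protein genes, ordered by mean level, with 1 point per library. The points of most genes lie close together, Rpl30 has its ES points below its control points, and Rplp2 is spread from 16.6 to 281 FPKM.

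At the other end, 9 tested genes had a mean under 50 FPKM. The lowest were the Rpl21 locus on chromosome 3 (1.90 FPKM over all libraries), Rpl10l (3.85), Rpl8 (12.5), Rps9l1 (14.01) and Rps4y2 (17.2). Rpl8 encodes a core protein of the large subunit. Loci described as L8 under other names held further counts, and all L8 loci together had 836, 873 and 766 counts in ES and 643, 746 and 812 in control. Rpl23a and Rpl10a, also core genes, were listed at 0 in every library. Other loci described as these proteins held counts, at levels far below the members' median log2 CPM of 8.37 to 8.60. For L23a they summed to 21.3, 12.7 and 13.3 CPM in ES and 11.7, 11.5 and 10.5 CPM in control. For L10a the locus LOC100363537 held 12.45, 19.1 and 24.95 CPM in ES and 13.99, 13.8 and 17.1 CPM in control. Rpl39l held 8 to 9 counts in ES and 9 to 14 in control, and Rpl3l, a form of L3 made in striated muscle, held 1, 1 and 6 counts in ES and 8, 0 and 4 in control. With Rpl30l1 these were the 5 genes not tested.

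For S27, L7 and S4 the related forms lay in the same order of mean FPKM in both groups, whereas for S19 the order differed. Rps19l2 was at 107 ± 50.1 FPKM in ES and 165 ± 40.7 in control, while Rps19 was at 130 ± 42.2 FPKM in ES and 107 ± 44.1 in control, with SD ranges that overlapped in both groups. Rps27l, a p53-responsive relative of S27, was at 114 ± 1.98 FPKM in ES and 102.8 ± 5.40 in control, while Rps27 was at 585 ± 79.9 FPKM in ES and 545 ± 78.1 in control. Rpl22l1, a relative of L22, was at 129 ± 5.69 FPKM in ES and 121 ± 16.4 in control. Rpl7l1, a relative of L7 that acts in ribosome assembly, was at 68.1 ± 1.02 FPKM in ES and 70.7 ± 0.729 in control, while Rpl7 was at 195 ± 16.1 and 188 ± 10.6. Their deposited lengths were 741 and 5151 bases. In CPM, which leaves out length, they lay further apart, at means of 51.6 for Rpl7l1 and 989.8 for Rpl7 over all libraries. Rps4y2, which lies on chromosome 4, was at 17.1 ± 2.23 FPKM in ES and 17.3 ± 2.98 in control (SD, n = 3 each). The X-linked Rps4x locus was at 588 ± 46.2 and 563 ± 41.8, and a second Rps4x locus on chromosome 4 at 115.2 ± 14.5 and 120.5 ± 21.1. None of these forms was called by edgeR.

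The X-linked members Rpl10, Rpl39, Rpl36a and Rps4x had log2 fold changes of 0.04, 0.07, 0.00 and 0.06, with SEs of 0.08, 0.10, 0.13 and 0.09, and the X-linked Rpl21 locus had 0.32 ± 0.17 (SE). Over the 6 libraries the log2 CPM of Rpl30 ran most like that of Rpl7l1 (Pearson r = 0.85), then Rps19l2 (0.52), the Rpl21 locus on chromosome 12 (0.49), Rpl10l (0.40) and Rplp1 (0.39). These 6 points share the group difference: with the group means removed, r with Rpl7l1 was −0.06.

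Besides L30, many ribosomal proteins had counts at more than 1 locus. Grouped by the protein their description names, 202 loci fell under 87 proteins and paralogous forms. For 38 proteins with a tested gene of the family, counts lay at several loci. The leading named locus of L30 held 33.6 percentage points less of its protein's counts in ES than in control. For the other 37 proteins this difference ran from −14.3 to 6.42 points, with 34 of them within 5 points. Some of these held nearly all counts at the leading locus, such as L10 (99.7%) and L26 (99.8%), so their share could hardly change. Where counts were split, libraries of 1 group could differ widely. The share of L7a was 58.6%, 18.45% and 16.3% in ES 1 to 3, and that of P2 was 6.59%, 45.4% and 9.50%. The shares did not overlap between the groups for L30 alone, 2.63% of the 38 proteins, and L30 was looked at because of Rpl30. The protein with the next largest difference, S19, had 54.4%, 30.3% and 26.2% of its counts at Rps19l2 in ES and 58.5%, 47.6% and 47.7% in control.

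**Figure D4:**
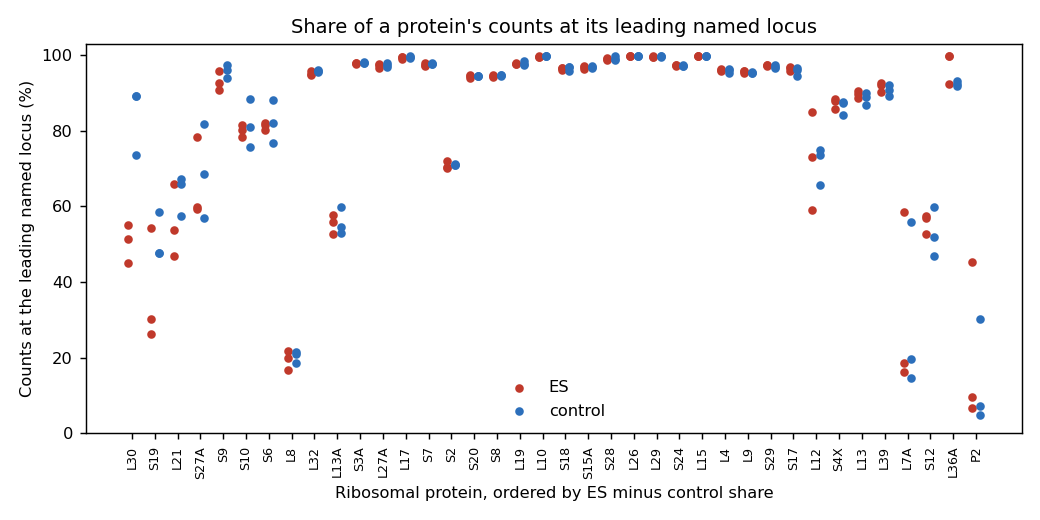
Share of a protein's counts at its leading named locus, 1 point per library, for the 38 proteins with counts at several loci, ordered by ES minus control. L30 has its ES points at 45.0% to 55.0% and its control points at 73.7% to 89.4%, while for the others the groups overlap.

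Single libraries also differed at such loci, in both groups. Rplp2, the gene of the stalk protein P2, held 126, 1638 and 189 counts in ES and 94, 131 and 695 in control, so that ES 2 and control 3 stood far above the rest. LOC498555, described as similar to P2, was steady at 1660, 1814 and 1654 counts in ES and 1762, 1593 and 1499 in control. One Rpl7a locus on chromosome 3 held 1987, 415 and 269 counts in ES and 1722, 243 and 365 in control, high in ES 1 and control 1. Rpl12 held 7742 counts in ES 1 but 4630 and 4801 in ES 2 and ES 3, and 5341, 5010 and 4761 in control. Its X-chromosomal relative LOC102555453 was lowest in ES 1, at 1358 counts, against 3159 and 1735 in ES 2 and ES 3 and 1752, 1771 and 2452 in control.

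Within a group, the log2 CPM of tested ribosomal protein genes had a median SD of 0.13, and the 1651 tested genes at or above the lower quartile of the members' abundance had 0.10. Rpl30 itself had 0.14. The 5 loci above 0.5 were Rplp2, the Rpl7a locus that begins at 5459160, the Rps27a locus on chromosome 5, Rps19l2 and Rps19. With the loci of a protein summed, this SD was lower for 31 of the 38 proteins. Its median was 0.12 for the sums and 0.14 for the leading loci. For P2 it was 0.36 after summing and 1.76 at Rplp2, for L12 it was 0.12 and 0.27, and for L30 it was 0.12 and 0.14. The sums come from a separate fit, in which proteins with 1 locus also moved slightly. For L11 the SD was 0.1045 there against 0.107, for P0 0.0596 against 0.0612, and for Rpl7l1 0.0183 against 0.0168. The count of 31 therefore cannot be credited to summing alone. With loci summed, edgeR called 0 of 85 tested proteins, against 24 called of 14760 rows in all (0.163%). In the fit by locus, 9.95% of all tested genes had an unadjusted edgeR p under 0.05. With loci summed, 5 of the 85 proteins did. Those 5 were S9, S15a, S13, L23a and Rpl36al, all higher in ES, with log2 fold changes of 0.54, 0.19, 0.18, 0.49 and 0.21 and SEs of 0.15, 0.08, 0.08, 0.20 and 0.07.

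The start regions were searched for the pyrimidine run typical of these messenger RNAs. Of the 81 symbols, 61 matched a RefSeq entry of 250 bases before to 50 after the annotated start (build GRCr8). A run of at least 5 pyrimidines beginning with C lay within 10 bases of the annotated start in 40 of these, 65.6%, against 23.7% of all 33469 entries. The ETS factor core CCGGAA, or TTCCGG on the other strand, was present in 47.5% of member windows and in 14.95% of all windows. The Sp1 core GGGCGG or CCGCCC was present in 54.1% and 33.1%, and TATAAA or TTTATA in 14.8% and 14.2%. The YY1 core CCATCTT or AAGATGG was present in 13.1% and 7.01%, and the CCAAT box, CCAAT or ATTGG, in 21.3% of member windows and 37.5% of all windows. Both strands were searched in each case. A match is only a match of letters. The regions below run from 30 bases before to 20 after the annotated start of the 5 matched genes with the highest mean FPKM, with the pyrimidine run in capitals in the 3 where one was found.
Rpl41, chr7:1563478-1563527, minus strand: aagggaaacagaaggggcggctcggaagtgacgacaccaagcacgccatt
Rplp0, chr12:46718371-46718420, minus strand: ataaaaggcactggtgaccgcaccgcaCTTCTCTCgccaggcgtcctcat
Rplp1, chr8:71290853-71290902, minus strand: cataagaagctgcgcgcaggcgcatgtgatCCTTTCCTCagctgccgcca
Rpsa, chr8:128728849-128728898, plus strand: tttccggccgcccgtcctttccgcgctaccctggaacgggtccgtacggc
Rps15, chr7:10068096-10068145, minus strand: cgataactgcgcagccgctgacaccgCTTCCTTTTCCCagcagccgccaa

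Genes that work with the ribosomal proteins were also read as lists. Of 5 tested genes whose products are fused to a ribosomal protein or bind the cytosolic ribosome, edgeR called 0. Their median was 0.10 on the log2 scale. Of the 5, 1 had an unadjusted edgeR p under 0.05, against 9.95% of all tested genes. Fau, which encodes S30 fused to a ubiquitin-like protein, was at 252 ± 75.7 CPM in ES and 236 ± 119 CPM in control. Rpl36al, a relative of L36a, had an unadjusted p of 0.0185 (edgeR adjusted p = 0.361) and a log2 fold change of 0.21 ± 0.07 (SE). The 16 tested messenger RNAs that are known for the same pyrimidine start had a median of 0.07 with 12 above 0 and 0 called.

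Translation factors and ribosome assembly genes had medians nearer 0. Elongation and termination factors had a median of 0.06 with 7 of 10 tested genes above 0, and initiation factors one of 0.04 with 23 of 34 above 0. In each list edgeR called 0 genes. Eif5b, which joins the subunits, was at 100.4 ± 3.02 CPM in ES and 113 ± 6.80 CPM in control (edgeR adjusted p = 0.460). Ribosome biogenesis genes had a median of 0.02 with 27 of 48 above 0 and 0 called. Of the 48, 2 were higher at an unadjusted edgeR p under 0.05, against 9.95% of all tested genes in either direction. These were the RNA polymerase I subunit genes Polr1d and Polr1b. Polr1d, shared with RNA polymerase III, was at 74.7 ± 3.20 CPM in ES and 63.2 ± 4.26 CPM in control. Mitochondrial ribosomal protein genes had a median of 0.05 with 56 of 76 above 0 and 0 called.

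Among 21 tested regulators of ribosomal protein synthesis, the median was 0.05 and edgeR called 0. DESeq2 called 1 higher, and called 2.03% of all genes it tested. Ddit4, an inhibitor of mTORC1 induced by stress, was at 56.0 ± 17.7 CPM in ES and 30.9 ± 3.76 CPM in control (edgeR adjusted p = 0.276). Rheb, which activates mTORC1, was at 100.6 ± 3.45 CPM in ES and 87.9 ± 2.77 CPM in control (edgeR adjusted p = 0.352). Myc, a transcription factor that drives ribosome production, was at 29.0 ± 4.51 CPM in ES and 23.4 ± 0.413 CPM in control (edgeR adjusted p = 0.418). These 3, of 21 tested, had an unadjusted edgeR p under 0.05, and so did 9.95% of all tested genes.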

How the data were processed

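The authors deposited whole-number read counts per gene and FPKM values for the same 6 libraries, and group means of FPKM that were not used further. Per the file headers each library has its own column; the build name rn7 is from the submitters' processing notes. For the aligner, counter, strand setting and handling of reads with several matches, the sources used here give nothing. Groups and replicate numbers came from sample titles. Counts were tested with the quasi-likelihood test of edgeR 4.0.16 (R 4.3.3, robust dispersions, filterByExpr, TMM), two-sided, with Benjamini-Hochberg adjustment over all 14828 genes tested, loci with no gene name included, and a threshold of 0.05. CPM is scaled by TMM. Each SE is the size of the log2 fold change over √F. DESeq2 1.42.0 and limma 3.58.1 served in alternatives, with log2(FPKM + 0.1) and log2(FPKM + 1) for the FPKM. Scripts were tested on simulated data. Correlations with Rpl30 used log2(CPM + 0.5), and those between same-numbered libraries used the log2 CPM that edgeR gives. Loci were summed by the protein named in their deposited description, a step chosen after seeing the data. The members and lists were chosen with earlier results of these data known. LOC100362027 and single loci of proteins with several were named after their values were seen. The other named genes are Rpl30, its 5 most alike members and its neighbours, members with a low p, at either end by fold change or FPKM, on the X chromosome, untested or in fixed paralogue pairs, and list genes with the lowest p. Some genes that met these rules are not reported here.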

Additional observations from a re-analysis of the deposited data

How the results depend on the processing

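The log2 fold change of Rpl30 stayed below 0, from −0.80 to −0.66, in the 18 alternatives other than the summing of loci. Rpl30, chosen for its call in an earlier fit, was called in only 9 of these 18. With loci summed by described protein, a step chosen after seeing the data, the log2 fold change for L30 was 0.024. That was −0.073 from the median of the other proteins. No other member was called in any of the 18. The median of the other members ran from 0.05 to 0.12 and that of all genes from −0.0033 to 0.0081. The 25 genes called became 39 with column totals alone, 132 without a filter on low counts, 2 with non-robust dispersions, 308 with DESeq2, 2 with limma-voom, 2 and 3 with limma on log2(FPKM + 0.1) and log2(FPKM + 1), 11 with the replicate block, and 2 to 152 when single libraries were left out, namely 41 (ES 3 left out), 5 (control 1), 152 (control 2) and 2 (control 3), each more than 1.5 times from 25. The cause was not tested. Same-numbered libraries did not deviate together over all tested genes (correlations of −0.12, −0.13 and −0.04). With 3 libraries per group this cannot exclude a pairing by number. The numbers were used as sample names, except in the alternative with the replicate block. Rplp2 was at −0.98 without ES 2 and Rps6 at 0.27 without control 1. Depth limits Rpl39l, Rpl3l and Rpl30l1, which held at most 14 counts.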

Other observations

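A locus with no gene name on chromosome 6, 91475230 to 91476623, whose description names the large subunit protein L36a, held 6, 182 and 4 counts in ES 1 to 3, against 184, 145 and 151 counts in control 1 to 3. ES 2 lay among the control libraries, while ES 1 and ES 3 were near 0. Rpl36a itself held 2014, 2241 and 2000 counts in ES and 2531, 1654 and 1874 counts in control. Fau held fewest counts in control 1, at 99.0 CPM, against 308 and 300.2 CPM in control 2 and control 3; in ES it held 208 to 340 CPM.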
